A study of Homo sapiens with 10 samples.

Results

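The 37 genes described here encode the heat shock proteins, their co-chaperones and the factors that control them. They were chosen by name and function, not by a threshold on measured values but with earlier results of these data known, and all 37 had a row in tables of 20327 genes. Most act in the cytosol. The module also holds HSPA13 and SERPINH1 of the endoplasmic reticulum and HSPA9, HSPD1 and HSPE1 of mitochondria. RNA was measured in 10 libraries of hTERT RPE-1 cells, a wild type line from human retinal pigment epithelium that is immortalised with telomerase. All cells, controls included, had been held for 48 h in 0.1% serum. In the first experiment, 3 libraries from cells given merbarone at 200 µM for 30 min were compared with 3 from cells given the vehicle DMSO for 30 min. In the second, 2 libraries from cells given merbarone at 200 µM for 2 h were compared with 2 from untreated cells, whose label names no vehicle. Merbarone inhibits the catalytic cycle of topoisomerase II without trapping the enzyme on cut DNA, and the series concerns DNA supercoiling and the pausing of RNA polymerase II near promoters. HSPA1A and HSPA1B are textbook genes for such pausing.

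HSP70 proteins bind unfolded stretches of other proteins and release them in a cycle driven by ATP, in which J-domain proteins start ATP hydrolysis and HSP110 and BAG proteins exchange the nucleotide. HSP90 and its co-chaperones finish the folding of kinases and steroid receptors, small heat shock proteins hold aggregating proteins in soluble complexes, and the TRiC/CCT ring folds actin and tubulin. Under proteotoxic stress, HSF1 binds heat shock elements in the promoters of many of these genes and releases paused polymerase into the gene.

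The values were RPKM, in which read numbers are scaled to gene length and library total. Recovered totals were 26633780 to 38225538 reads per library in the 30 min experiment and 11956652 to 13691014 in the 2 h experiment. In bulk RNA a lower value can come from fewer cells that hold the transcript or from less of it per cell, and these cannot be told apart. The labels do not say whether replicates came from separate cultures, so the p-values measure only the spread between these libraries. Of 11 markers of retinal pigment epithelium, 8 stayed under 1 RPKM in every library, among them RPE65 at no more than 0.066 and RGR at 0. OTX2 was at 2.35 to 4.61, PMEL at 3.68 to 5.07 and BEST1 at 2.10 to 20.03. For most genes the length in RPKM included introns, so a low value does not show that a marker was absent. In reads per kilobase of exon, scaled to library total, group means of MITF were 7.16 to 12.1, beside 9.30 to 12.9 for OTX2. MERTK was at 4.20 to 4.77 on that scale. RPE65, RLBP1, TYR, TTR, RGR and LRAT were at no more than 0.414. Where reads were counted over introns too, intron reads can raise this measure, so it ranks genes only roughly. BEST1 was 7.27 times as high in the untreated as in the DMSO libraries, and the keratin genes KRT8 and KRT18 of epithelial cells were 2.86 and 3.51 times as high. At 2 h OTX2 fell by 0.32 (log2, limma adjusted p = 0.0349), and BEST1, PMEL, KRT8 and KRT18 did not pass. The part of these marker differences in the chaperone results was not tested. The 4 matched markers of blood, endothelial, other epithelial and photoreceptor cells were at no more than 0.012 RPKM.

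Promoter sequences are shown for 4 of the 5 chaperone genes that fell after 2 h, because HSF1 acts through heat shock elements in the promoters of many chaperone genes. The sequences are the bases before the RefSeq start from a table on GRCh38.p14, placed on GRCh37 by exact match. Each is written 5′ to 3′ on the strand of its gene, and capitals mark inverted repeats of the element, GAANNTTC or TTCNNGAA, each of which reads the same on both strands.
HSPA1A, chr6:31783070-31783319, plus strand: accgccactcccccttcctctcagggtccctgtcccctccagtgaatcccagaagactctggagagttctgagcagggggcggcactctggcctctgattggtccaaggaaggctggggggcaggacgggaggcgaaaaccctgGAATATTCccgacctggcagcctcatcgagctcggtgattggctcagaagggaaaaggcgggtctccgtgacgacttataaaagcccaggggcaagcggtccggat
HSPA1B, chr6:31795265-31795514, plus strand: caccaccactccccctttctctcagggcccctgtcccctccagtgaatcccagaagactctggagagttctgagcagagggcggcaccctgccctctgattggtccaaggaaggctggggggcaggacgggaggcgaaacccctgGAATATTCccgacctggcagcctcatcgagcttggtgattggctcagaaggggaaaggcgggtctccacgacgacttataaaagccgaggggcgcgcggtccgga
HSPA8, chr11:122932845-122933094, minus strand: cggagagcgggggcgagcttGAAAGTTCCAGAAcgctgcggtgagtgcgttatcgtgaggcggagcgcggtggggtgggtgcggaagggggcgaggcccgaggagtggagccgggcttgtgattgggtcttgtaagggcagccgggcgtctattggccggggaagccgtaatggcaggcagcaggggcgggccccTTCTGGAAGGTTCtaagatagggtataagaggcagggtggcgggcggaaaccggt
DNAJA1, chr9:33025021-33025270, plus strand: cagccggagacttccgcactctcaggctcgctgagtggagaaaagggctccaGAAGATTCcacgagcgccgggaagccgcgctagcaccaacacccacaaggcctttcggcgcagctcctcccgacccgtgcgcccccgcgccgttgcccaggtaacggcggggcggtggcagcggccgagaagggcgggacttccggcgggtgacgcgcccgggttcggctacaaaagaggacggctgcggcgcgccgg

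The same search was made in windows from 250 bases before to 50 after each start in the table. HSPA1A and HSPA1B held 1 repeat each, in windows that were identical at 277 of 299 aligned bases. HSPA8 held 4 repeats in separate runs of 2 overlapping ones, and DNAJA1 held 3, of which 1 lies before the start. A triple run, in which both repeats overlap and share a GAA or TTC block, was present in HSPA8 and DNAJA1 but not in HSPA1A or HSPA1B. Of the 37 genes, 33 had a window, the others being CCT6A, CRYAB, FKBP4 and HSF1. A repeat was found in 20 of these 33 genes, 60.6%, against 16.2% of 27305 genes in the table. By window, 43.8% of 48 held a repeat against 13.5% of 35116, and 16.7% held a triple run against 0.490%. The 37 genes were chosen partly as heat shock factor targets, so their higher share is tied to that choice and is not a separate result. A match is a run of letters and was not tested for binding.

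At 30 min, no change was called among the 31 chaperone genes tested, which does not show that there was none. Standard errors (log2) reached 0.25 for CRYAB and 0.17 for HSPA8 and HSPB1. In limma's fit over all genes, 0 of 31 passed a Benjamini-Hochberg adjusted p of 0.05, against 0.0154% of the 6500 genes tested. At an unadjusted p under 0.05 it was 0 of 31, against 16 higher and 8 lower of the 6500 genes. With so few over all genes, 0 of 31 does not set the chaperone genes apart. Alternatives with limma's voom on recovered reads and with the replicate number as a block also called 0 of them. The median difference, merbarone minus DMSO on the log2(RPKM + 1) scale, was 0.00 over the 31 genes and -0.01 over all genes. The range ran from -0.08 for HSPA1A to 0.10 for HSPA13.

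The 2 chaperone genes whose 30 min libraries did not overlap lay within a narrow range. HSPA13, an HSP70-like protein of the endoplasmic reticulum, was at 7.59, 7.56 and 8.18 RPKM with DMSO and 8.39, 8.52 and 8.38 with merbarone, so that every treated library was higher. It was the 1 member of 31 with that pattern, against 0.877% of all genes. DNAJB1, the main J-domain partner of inducible HSP70, was at 5.94, 6.10 and 5.97 RPKM with DMSO and 5.83, 5.74 and 5.50 with merbarone. It was the 1 member with every treated library lower, against 1.4% of all genes. Libraries with the same replicate number moved together: for 25 of the 31 genes the highest DMSO library and the highest merbarone library carried the same number, and in 19 of these it was number 1. Over all 6500 genes tested the numbers matched for 4198, or 64.6%, and in 1650 of these it was number 1, and the labels do not say what the number marks.

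At 2 h, 5 chaperone genes had fallen and none had risen. The 5 were HSPA1A and HSPA1B, which encode the stress-inducible HSP70, HSPA8, which encodes the constitutive HSP70, DNAJA1, a J-domain partner of HSPA8, and CRYAB, a small heat shock protein. They were 5 of 33 tested, against 7.1% of 6620 genes that fell and 5.98% that rose by the same rule. At an unadjusted p under 0.05, 9 of 33 chaperone genes were lower and 0 higher, against 1289 lower and 781 higher of 6620 genes. The median difference, merbarone minus untreated, was -0.12 over the 33 genes and -0.05 over all genes, and 29 of the 33 were below 0 against 3995 of 6620. Both merbarone libraries were below both untreated libraries for 18 of the 33 genes, against 39.0% of all genes, and above them for 1, against 22.5%. With 2 libraries per group the count depended on each library. It was 10, all lower, without untreated replicate 1, where 37.2% of all genes passed in either direction, and 9, all lower, without untreated replicate 2, where 19.7% did. Without merbarone replicate 1 or replicate 2 HSPA1A alone still passed, beside 4.97% and 6.03% of all genes. None passed with no filter on low values (0.315% of all genes), and 3, all lower, passed with all 10 libraries in 1 fit (9.13%). With GC dependence removed 9 passed (25.6% of all genes), of which 8 were lower and 1, DNAJB6, was higher.

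**Figure D1:**
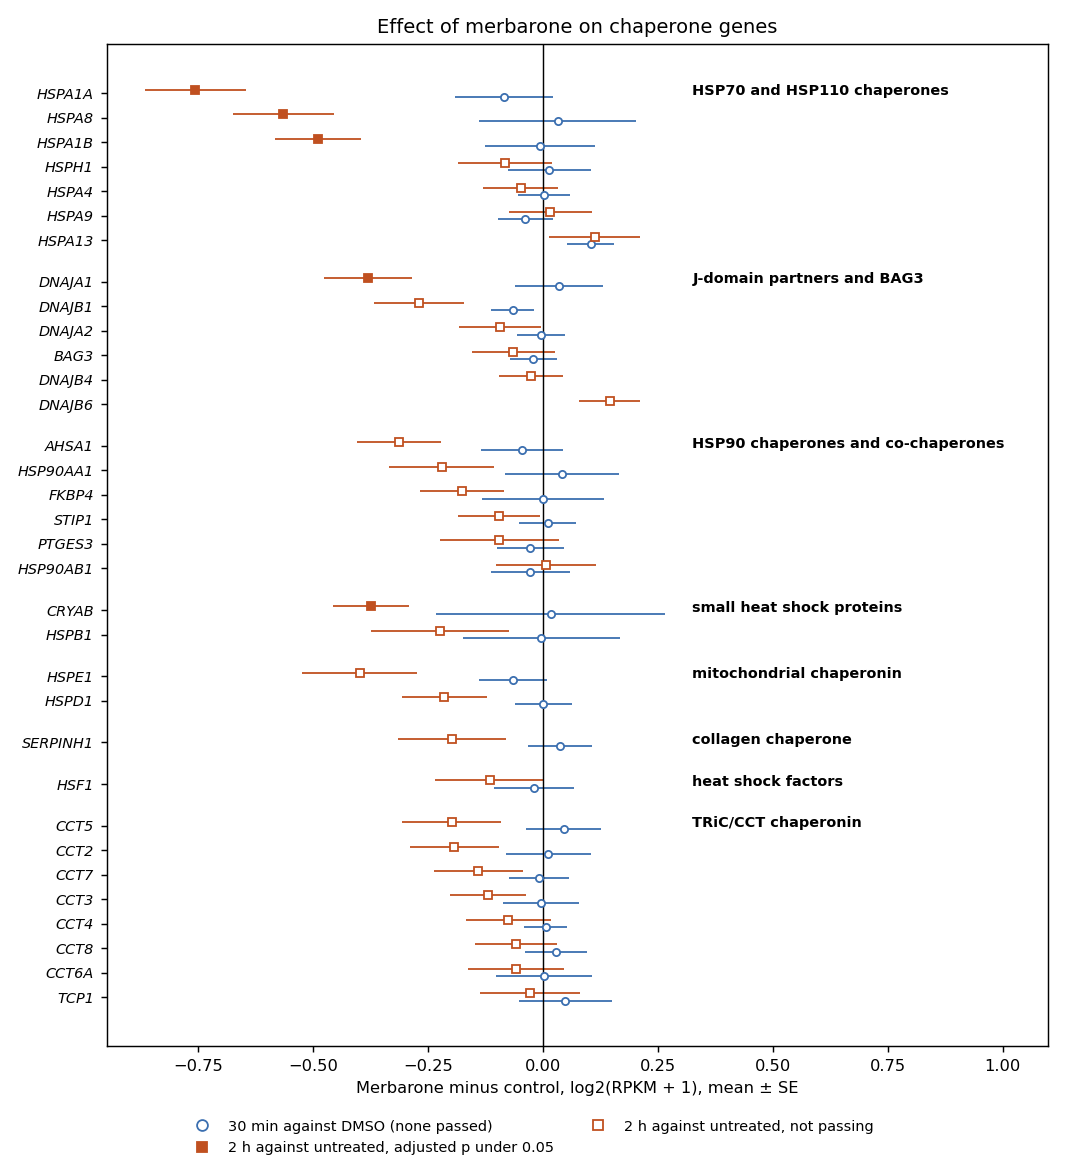
Difference of merbarone from its control for each chaperone gene tested, on the log2(RPKM + 1) scale, as the limma estimate with its standard error. Circles stand for 30 min against DMSO and squares for 2 h against untreated, filled where the adjusted p was under 0.05. The circles lie between -0.08 and 0.10, and the 5 filled squares lie between -0.76 and -0.37.

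**Figure D2:**
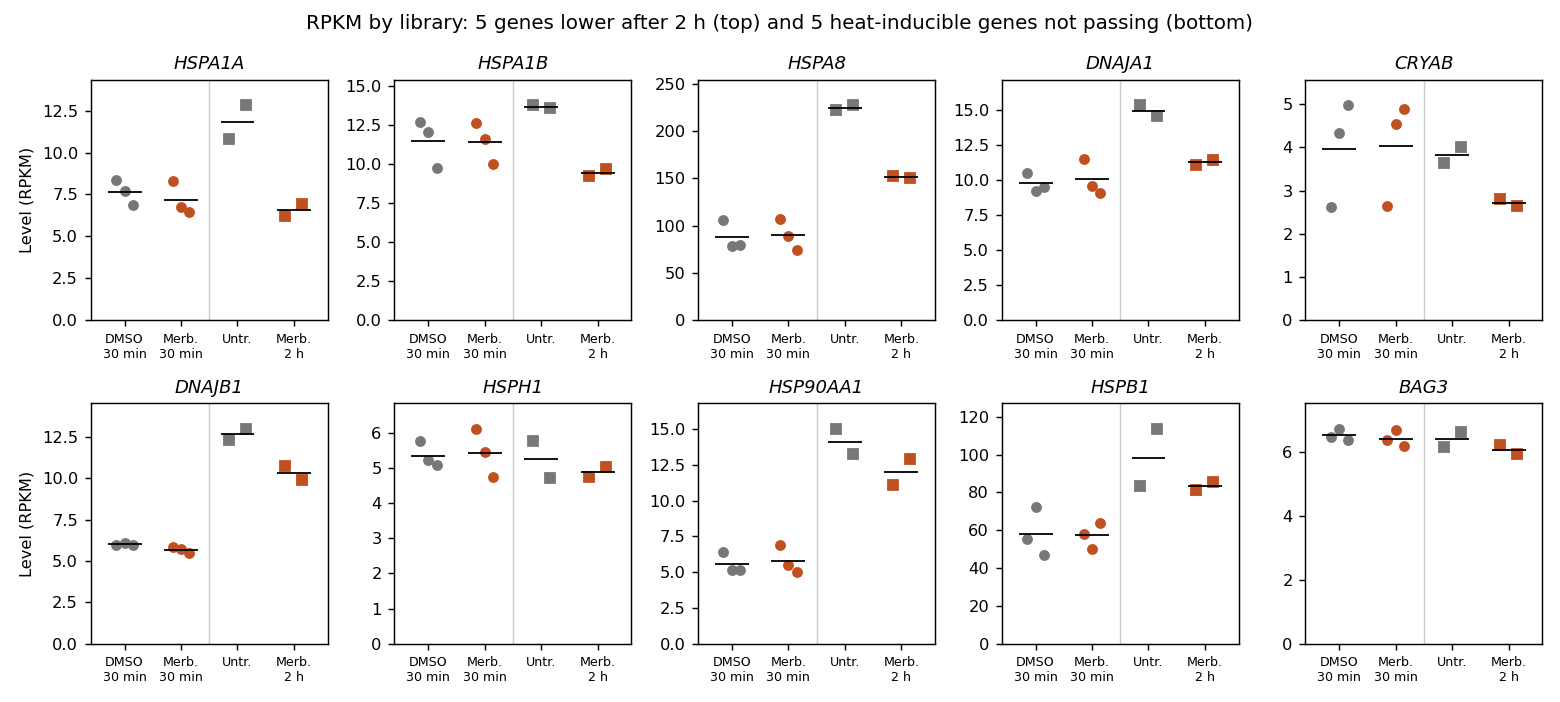
RPKM of 10 chaperone genes in every library, with the group mean as a line and each axis starting at 0. The top panels show the 5 genes that fell after 2 h, where both merbarone libraries lie below both untreated ones. The bottom panels show 5 heat-inducible genes that did not pass.

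In the HSP70 and HSP110 group 3 of 7 genes tested fell and none rose. HSPA1A and HSPA1B are intronless neighbours on chromosome 6 with nearly the same coding sequence (GRCh37, 31783320 to 31785723 and 31795515 to 31798031, both on the plus strand). HSPA1A was at 10.8 and 12.8 RPKM in the untreated libraries and at 6.21 and 6.93 after 2 h of merbarone. The groups did not overlap, and the mean fell by 44.4%, from 11.8 ± 1.41 to 6.57 ± 0.51 (SD, n = 2 each). The difference was -0.76 ± 0.11 (log2, SE, limma adjusted p = 0.00329), and 14 of 6620 genes had a lower value. At 30 min HSPA1A was at 8.36, 7.70 and 6.87 with DMSO and 8.29, 6.75 and 6.46 with merbarone, and the groups overlapped.

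HSPA1B was at 13.8 and 13.6 RPKM untreated and at 9.21 and 9.67 after 2 h. Both treated libraries were lower, by -0.49 ± 0.09 (log2, SE, limma adjusted p = 0.0125), and the mean fell by 30.9%. At 30 min it was at 12.7, 12.1 and 9.75 with DMSO and at 12.6, 11.6 and 10.02 with merbarone, again in overlapping groups. HSPA1A and HSPA1B rested on 207 to 1096 reads per library. How reads that match both copies were counted is not given in the sources used here, so the split between them is uncertain. Their summed RPM (reads scaled to the library total, with no length) do not depend on that split: 61.0 and 65.4 untreated against 38.3 and 41.3 after 2 h, so the mean fell by 37.0%. At 30 min the summed mean was 47.6 ± 5.68 with DMSO and 46.2 ± 5.54 with merbarone (SD, n = 3 each).

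HSPA8, which folds newly made proteins in unstressed cells, was the most abundant of the 37 transcripts per exon length (GRCh37 chromosome 11, 122928197 to 122933938, minus strand). It was at 222 and 227 RPKM untreated and at 153 and 151 after 2 h, on 11278 to 20607 reads per library. The 2 treated libraries lay close together and well under the untreated ones. The difference was -0.57 ± 0.11 (log2, SE, limma adjusted p = 0.013) and the mean fell by 32.6%. At 30 min it was at 106, 78.1 and 79.6 with DMSO and at 107, 88.8 and 74.2 with merbarone, with replicate 1 highest in both groups. Processed pseudogenes of HSPA8 can share its reads.

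The other members of this group did not pass. HSPH1, the heat-inducible HSP110, was at 5.77 and 4.73 RPKM untreated and at 4.74 and 5.03 after 2 h, in overlapping groups, with a difference of -0.08 (limma adjusted p = 0.617). At 30 min it was at 5.76, 5.23 and 5.08 with DMSO and 6.11, 5.44 and 4.75 with merbarone. The constitutive HSP110 gene HSPA4 differed by -0.05 at 2 h, the mitochondrial HSPA9 by 0.02 and HSPA13 by 0.11. HSPA4L, a testis-rich relative of HSPA4, had a mean under 1 RPKM and was not tested.

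Among the J-domain proteins and BAG3, 1 of 6 genes tested fell. This was DNAJA1, which lies on chromosome 9 (GRCh37, 33025271 to 33039905, plus strand). It was at 15.3 and 14.6 RPKM untreated and at 11.1 and 11.4 after 2 h, which did not overlap. It fell by 24.8%, with a difference of -0.38 ± 0.10 (log2, SE, limma adjusted p = 0.034). At 30 min it was at 10.5, 9.23 and 9.49 with DMSO and at 11.5, 9.57 and 9.08 with merbarone, in overlapping groups.

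DNAJB1, one of the most strongly heat-induced J-domain genes, was at 12.4 and 13.0 RPKM untreated and at 10.8 and 9.89 after 2 h. Both treated libraries were lower, but the difference of -0.27 ± 0.10 did not pass (log2, SE, limma adjusted p = 0.101). It passed as lower in 4 of 16 alternatives. DNAJB1 overlaps TECR on the other strand, and the implied counted length of 15007 bp was shorter than its annotated span of 45623 bp. BAG3, the heat-inducible co-chaperone of selective autophagy, was at 6.16 and 6.62 RPKM untreated and at 6.22 and 5.91 after 2 h. Its groups overlapped at 2 h, with a difference of -0.06 (limma adjusted p = 0.66). At 30 min BAG3 was at 6.46, 6.70 and 6.38 with DMSO and 6.36, 6.68 and 6.18 with merbarone.

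DNAJB6, which suppresses aggregation of polyglutamine proteins, was the 1 tested member with both treated libraries above both untreated ones. It was at 1.00 and 0.990 RPKM untreated and at 1.13 and 1.29 after 2 h, and the difference of 0.14 did not pass (limma adjusted p = 0.173). It passed as higher in 3 of 14 alternatives, those with GC dependence removed, with or without the replicate block, and voom with the block (limma adjusted p from 0.023 to 0.745 over the 14). DNAJA2 and DNAJB4 differed by -0.09 and -0.03 at 2 h and did not pass. DNAJB4 and DNAJB6 had means under 1 RPKM at 30 min and were not tested there.

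For HSP90 and its co-chaperones, none of the 6 genes tested passed at 2 h, and 5 were below 0 with a group median of -0.14. HSP90AA1, the heat-inducible HSP90, was at 14.99 and 13.26 RPKM untreated and at 11.1 and 12.9 after 2 h. Both treated libraries were lower, with a difference of -0.22 ± 0.11 (log2, SE, limma adjusted p = 0.218). At 30 min it was at 6.42, 5.17 and 5.18 with DMSO and at 6.88, 5.52 and 5.01 with merbarone, in overlapping groups. HSP90AB1, the constitutive HSP90, was at 85.5 and 87.8 untreated and at 85.3 and 88.8 after 2 h, a difference of 0.01 (limma adjusted p = 0.976). HSPA8 and HSP90AB1, the most abundant HSP70 and HSP90 transcripts among the members, thus gave values of -0.57 and 0.01, and the difference between them was not tested.

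AHSA1, which stimulates the ATPase of HSP90, came nearest to passing in this group. It was at 8.95 and 9.50 RPKM untreated and at 7.10 and 7.36 after 2 h, a difference of -0.31 ± 0.09 (log2, SE, limma adjusted p = 0.0552). It passed as lower in 9 of 16 alternatives (limma adjusted p from 0.00274 to 0.477). FKBP4, an HSP90-bound immunophilin, differed by -0.18, STIP1, which links HSP70 to HSP90, by -0.10, and the p23 gene PTGES3 by -0.10. CHORDC1, a co-chaperone with zinc-binding domains, was not tested, at 0.312 to 0.764 RPKM over the 10 libraries.

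Of the small heat shock proteins, 1 of 2 genes tested fell. This was CRYAB, which lies on chromosome 11 (GRCh37, 111779288 to 111794446, minus strand) and overlaps HSPB2 and C11orf52 on the other strand, so its reads are uncertain where strand was not used. It was at 3.638 and 4.004 RPKM untreated and at 2.80 and 2.63 after 2 h. The groups did not overlap, and CRYAB fell by 28.9%, with a difference of -0.37 ± 0.08 (log2, SE, limma adjusted p = 0.0228). At 30 min CRYAB was at 2.61, 4.33 and 4.97 with DMSO and at 2.65, 4.54 and 4.89 with merbarone. These values followed the replicate number in both groups, and the spread between numbers was wider than the whole 2 h difference.

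HSPB1, a heat-inducible small heat shock protein that is abundant in many cultured cells, was at 83.5 and 113 RPKM untreated and at 81.2 and 85.3 after 2 h. The groups overlapped, with a difference of -0.22 ± 0.15 (log2, SE, limma adjusted p = 0.34). At 30 min HSPB1 was at 55.3, 72.2 and 47.0 with DMSO and at 58.0, 50.2 and 63.9 with merbarone. HSPB8, the partner of BAG3, was at 1.01 and 1.04 RPKM untreated and at 0.852 and 0.862 after 2 h. Its mean was under the filter of 1 RPKM, so it was not tested. It had 478 to 1268 reads per library, and its RPKM was scaled to a length that included introns.

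Neither the mitochondrial chaperonin, the collagen chaperone nor the heat shock factors held a gene that passed. HSPD1 and HSPE1 encode HSP60 and its lid HSP10 from a shared bidirectional promoter. HSPE1 was at 7.45 and 5.62 RPKM untreated and at 4.34 and 5.02 after 2 h, and HSPD1 was at 4.39 and 3.69 untreated and 3.31 and 3.35 after 2 h. Both were lower in both treated libraries, and neither passed, while HSPE1 passed as lower in 5 of 16 alternatives and HSPD1 in 5 of 15, among them GC dependence removed and leaving out untreated replicate 2. The difference was -0.40 for HSPE1 (limma adjusted p = 0.0681) and -0.21 for HSPD1 (limma adjusted p = 0.151). They overlap each other on opposite strands, and HSPE1 also overlaps HSPE1-MOB4 on its own strand. HSPE1 had 125 to 344 reads per library. SERPINH1, which folds procollagen, differed by -0.20 (limma adjusted p = 0.283).

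HSF1, the main stress-activated factor, was at 2.29 and 3.31 RPKM untreated and at 2.52 and 2.44 after 2 h, a difference of -0.12 (limma adjusted p = 0.537). At 30 min HSF1 was at 2.62, 3.36 and 2.71 with DMSO and at 2.59, 3.02 and 2.89 with merbarone. Its groups overlapped in both experiments. HSF2, a factor best known from development, was at 0.534 and 0.490 RPKM untreated and at 0.637 and 0.619 after 2 h. With 197 to 727 reads per library and a counted length that included introns, it was under the RPKM filter and was not tested. At 30 min HSF2 was at 0.448, 0.511 and 0.463 with DMSO and at 0.469, 0.578 and 0.493 with merbarone. HSF1 is controlled mainly at the protein level, and RNA levels do not report its activity.

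The 8 genes for the subunits of the TRiC/CCT chaperonin, TCP1, CCT2, CCT3, CCT4, CCT5, CCT6A, CCT7 and CCT8, differed little, and none passed at either time. At 2 h all 8 were below 0, from -0.20 for CCT5 to -0.03 for TCP1, with a median of -0.10. Over all genes 3995 of 6620 were below 0, with a median of -0.05. At 30 min they lay between -0.01 and 0.05. Both treated libraries were lower than both untreated ones at 2 h for CCT2, CCT3, CCT4, CCT5 and CCT7, a pattern that 39.0% of all genes had.

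**Figure D3:**
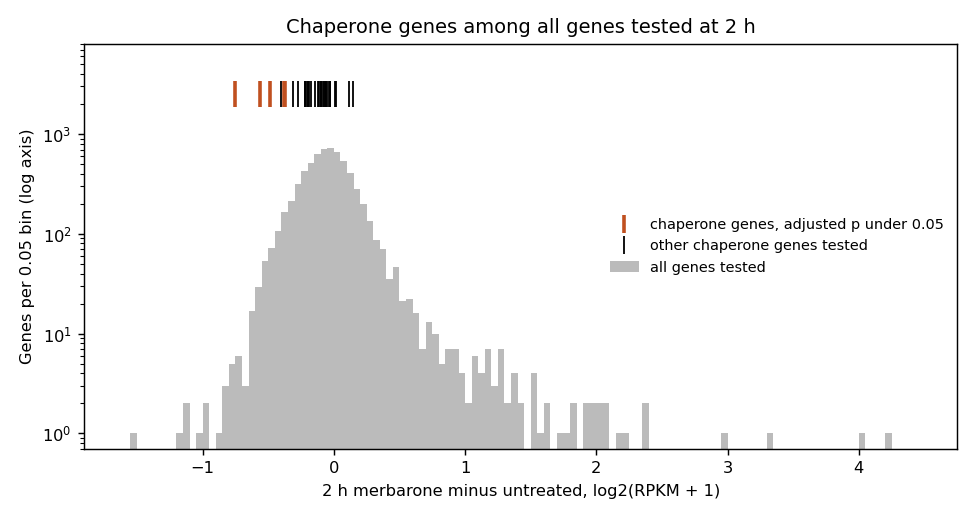
Distribution of the 2 h difference, merbarone minus untreated on the log2(RPKM + 1) scale, over the 6620 genes tested (grey, log axis, bins of 0.05). Marks show the 33 chaperone genes tested, in orange those with an adjusted p under 0.05. The chaperone genes run from -0.76 to 0.14, and the long right side of the distribution holds none of them.

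Genes whose windows held an exact match to a repeat and genes whose windows held none were set side by side for the 2 h experiment as a description. A window with no exact match is not shown to lack a heat shock element. HSPE1 was counted without a repeat and HSPD1 with one, although they share a promoter. Of the 29 tested genes with a promoter window, 17 held a repeat and had a median difference of -0.20, and 12 held none and had a median of -0.09. All 4 genes that fell and had a window held a repeat, as did 13 of the 25 that did not pass. The triple run was in 2 of the 4 and in 5 of the 25, among them HSP90AB1 at 0.01 and DNAJB6 at 0.14. The median annotated span was 5742 bp for the 5 genes that fell, 19437 bp for the 28 other chaperone genes tested and 17908 bp for all genes. HSPA1A, HSPA1B and HSPA8 were short, at 2404, 2517 and 5742 bp. DNAJA1 and CRYAB, at 14635 and 15159 bp, were near the median of all genes. HSPB1 and HSPE1, at 1623 and 3310 bp, were short and did not pass. The part of gene length in the result was not tested.

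The 2 h and 30 min effects were then compared in 1 fit over all 10 libraries, where treatment time, vehicle and experiment differ together and cannot be told apart. None of 32 genes differed (0 higher, against 1.27% of 6558 genes, and 0 lower, against 0.366%; 1.63% in either direction), while 5 were lower and 0 higher at an unadjusted p under 0.05, against 664 lower and 389 higher of 6558 genes. HSPA1A had the largest value, with a 2 h effect lower than the 30 min effect by -0.67 (log2, limma adjusted p = 0.0904). It was -0.60 for HSPA8 and -0.48 for HSPA1B, with limma adjusted p = 0.259 and 0.203. With the replicate number as a block, 6 passed, HSPA1A, HSPA1B, HSPA8, DNAJA1, AHSA1 and CRYAB, all with the lower 2 h effect, but 19.1% of all genes also passed in that fit, a share near that of the 6 in 32. The fall of the 5 genes at 2 h is therefore not shown to differ from the 30 min values without the block.

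The controls of the 2 experiments were not alike for these genes. Both untreated libraries were above all 3 DMSO libraries for 21 of 32 chaperone genes, against 37.6% of all genes, and below them for 3, against 21.4%. The median ratio of untreated to DMSO was 1.28 over the chaperone genes and 1.07 over all genes. For 6 of 32 the untreated mean was at least 2 times the DMSO mean, against 3.29% of all genes. The ratio was 5.01 for HSPE1, 2.56 for HSPA8, 2.53 for HSP90AA1, 2.31 for HSPD1, 2.27 for HSP90AB1 and 2.11 for DNAJB1. That of HSPE1 rested on 125 to 344 reads per library in a gene that overlaps HSPE1-MOB4 on its own strand, so it is uncertain. For HSPA8 the 2 h merbarone libraries, at 153 and 151 RPKM, were thus below their own control and above all 6 libraries of the 30 min experiment. HSPA1A after 2 h, at 6.21 and 6.93, was within or below the range of the DMSO libraries. Vehicle, experiment and depth cannot be told apart in this comparison.

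**Figure D4:**
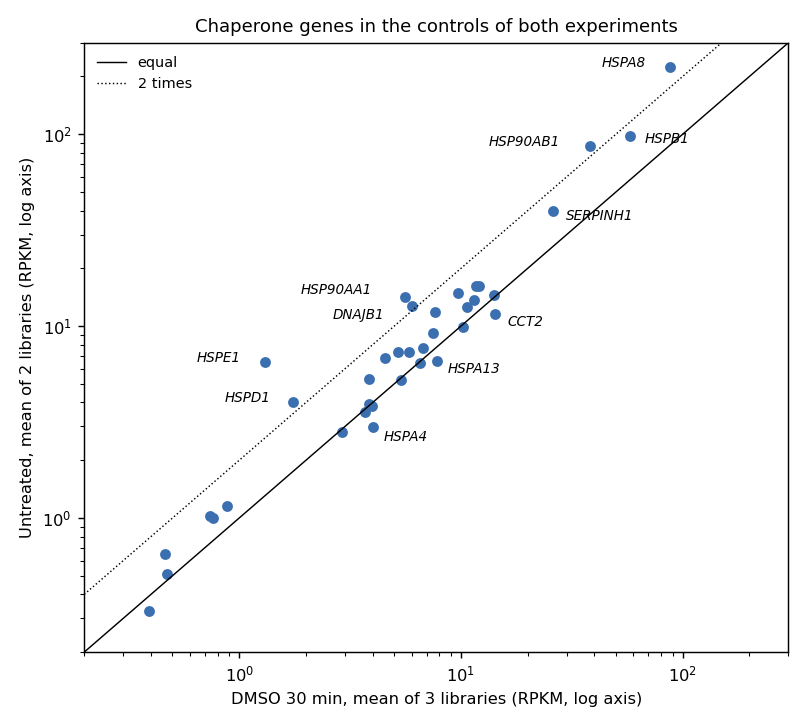
Mean RPKM of the 37 chaperone genes in the 3 DMSO libraries (x axis) and the 2 untreated libraries (y axis), both on log axes. The solid line marks equal levels and the dotted line 2 times. HSPE1 lies farthest above the dotted line, with a ratio of 5.01, and HSPA4 lies below the solid line.

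Levels were compared between genes as RPM per kilobase of exon. For most genes the counted length included introns, so reads from introns or overlapping genes can raise these values. How reads that match several places were counted is not given, so the order is approximate. In the DMSO libraries HSPA8 was highest of the 37 genes at 104, followed by HSP90AB1 at 87.3, CCT4 at 78.6, HSP90AA1 at 64.7 and HSPB1 at 62.8. In the untreated libraries HSPA8 was at 266, HSP90AB1 at 198, HSP90AA1 at 164 and HSPB1 at 106, and CCT4 was the sixth at 76.2. HSPA1A and HSPA1B, which are low without stress in many cells, were at 7.74 and 11.5 with DMSO and 11.97 and 13.68 untreated. CHORDC1 was lowest in both controls, at 0.925 and 1.30.

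Other genes of the chaperone network came from lists of HSP70, HSP90 and CCT partners, small heat shock proteins, heat shock factor targets and chaperones of the endoplasmic reticulum. Of 82 genes listed, 81 had a row. At 30 min 0 of 62 tested passed in limma, against 0.0154% of all genes, and at 2 h 2 of 61 rose, against 5.98%, and 2 fell, against 7.1%. GRPEL2, a nucleotide exchange factor of mitochondrial HSP70, was at 2.20 and 1.72 RPKM untreated and at 4.04 and 3.58 after 2 h. It rose by 94.3%, with a difference of 0.70 ± 0.10 (log2, SE, limma adjusted p = 0.00293). IER5, an HSF1 target whose protein takes part in HSF1 dephosphorylation, was at 30.0 and 31.9 untreated and at 43.7 and 52.2 after 2 h. It rose by 0.61 ± 0.12 (log2, SE, limma adjusted p = 0.014).

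The genes that fell were HSPA2 and TOMM34. HSPA2, an HSP70 best known from sperm development, was at 2.02 and 1.89 RPKM untreated and at 1.11 and 0.972 after 2 h, a difference of -0.54 ± 0.07 (log2, SE, limma adjusted p = 0.00207). TOMM34, which binds HSP70 and HSP90 at the mitochondrial surface, was at 7.74 and 7.43 untreated and at 5.56 and 5.25 after 2 h (-0.42 ± 0.09, limma adjusted p = 0.0176), and it overlaps PABPC1L. HSPA6, an HSP70 gene that is nearly silent without heat, had 0 to 8 reads per library and was not tested. It was at 0.113 and 0.158 RPKM untreated and at 0.221 and 0.174 after 2 h. Other listed genes under the filter at 2 h went both ways. DNAJA4, on 8 to 58 reads per library, was at 0.054 and 0.037 RPKM untreated and at 0.234 and 0.174 after 2 h. PFDN1 was lower, at 0.949 and 0.974 untreated and 0.750 and 0.756 after 2 h. HSPB2 was also lower, at 0.681 and 0.645 against 0.376 and 0.464. Of the chaperones of the endoplasmic reticulum, 0 of 12 passed in limma at 2 h, with 1 lower at an unadjusted p under 0.05. The lists' medians at 2 h ran from -0.20 for the 5 prefoldin and CCT partners to -0.02 for the 20 other HSP70 system genes, beside -0.05 for all genes.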

How the data were processed

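Polyadenylated RNA was sequenced from libraries made with a stranded kit, per the labels' protocols. The authors deposited RPKM per Ensembl gene, 1 table per library. The submitters' processing notes list Bowtie 1.2.0, DESeq2, edgeR and deepTools 2.4.1 and the builds hg19 and GRCh37, without roles. Strand and multi-mapped reads in the counting are not given in the sources used here. Values of all 17680 genes above 0 were whole multiples of 1 read (within 0.01), which gave the read numbers. The implied length was within 1% of the whole gene span, introns included, for 74.9% of 17234 genes.

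Differences were tested with limma 3.58.1 (R 4.3.3; lmFit, eBayes with trend) on log2(RPKM + 1), two-sided, over genes averaging 1 RPKM or more, with Benjamini-Hochberg adjustment over all of them and a threshold of 0.05. This scale understates changes of low genes. On simulated reads at 2 per group, limma called 200 of 200 changed genes and 17 unchanged ones among 6559. How often limma calls differences as small as those reported here was not tested. Same-numbered libraries correlated at 30 min (0.605 to 0.925 over 3 pairs of deviations from group means), so the number was used as a block as an alternative. The block was also run for the difference and at 2 h, where the correlation was only 0.30. The alternatives were another pseudocount, filter or scaling, eBayes without trend, the block, all libraries in 1 fit, voom, leaving out each library and, added after seeing the data, removal of GC dependence. Members and lists were chosen with earlier results of these data known. Values are given in every library for members that passed and for 8 heat shock factor targets and both factors, and for other members near them chosen after their values were seen.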

Additional observations from a re-analysis of the deposited data

Results flagged for a closer look

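For 3 of 60 genes tested in the wider chaperone network the effect of merbarone at 2 h differed from that at 30 min, 2 higher and 1 lower. Over all 6558 genes tested, 1.27% were higher and 0.366% lower. The limma test was of the difference itself, in which time, kind of control and experiment cannot be told apart. HSPA2 had a 2 h effect lower than its 30 min effect by -0.55 (log2, adjusted p = 0.0288), with all 6 libraries of the 30 min experiment at or below 1.36 RPKM. GRPEL2 had a higher effect at 2 h, by 0.87 (adjusted p = 0.0247). IER5 also had a higher effect at 2 h, by 0.73 (adjusted p = 0.0499). The call was lost in 10 of 20 alternatives for HSPA2, 6 of 20 for GRPEL2 and 12 of 21 for IER5, mostly when 1 library was left out, with adjusted p up to 0.157, 0.137 and 0.205.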

How the results depend on the processing

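At 30 min 0 chaperone genes passed under every alternative. The share of all genes called, 0.0154%, was 0 without a filter, 0.0959 with a mean of at least 5 RPKM, 0.0308 with median scaling and with quantile normalization, 0.0305 with all libraries in 1 fit, 0.123 with the replicate block, 0.138 with voom and the block, 0.123 with GC dependence removed and the block, and 0 to 0.0308 without 1 library. At 2 h the 5 chaperone genes became 0 without a filter, where more low genes were tested, 3 with all libraries in 1 fit, 9 with GC dependence removed (8 lower, 1 higher) and 1 to 10 without 1 library, which leaves an arm with 1 library assumed to vary like the others. The 2 h replicates share only a number: same-numbered libraries correlated at 0.30, and the replicate block leaves 1 residual degree of freedom. With the replicate block 9 passed, all lower, 11 with voom and the block (10 lower, 1 higher), and 9 with GC dependence removed and the block (8 lower, 1 higher), the higher gene being DNAJB6 in each case. The share of all genes, 13.1%, was 0.315 without a filter, 25.6 with GC dependence removed, 32.2 with the replicate block, 32.0 with voom and the block, 29.8 with GC dependence removed and the block, and 4.97 to 37.2 without 1 library. For the difference between experiments the 0 chaperone genes became 6 with the replicate block, 6 with voom and the block and 8 with GC dependence removed and the block. The share of all genes, 1.63%, was 19.1, 20.1 and 26.0 in these, 0.915 with voom, 3.13 with GC dependence removed and 0.580 to 1.31 without 1 library. Where the cause is not named it was not tested. HSPA1A kept its 2 h call in 15 of 16 alternatives and lost it without a filter (limma adjusted p = 0.103, the highest of a range from 1.57e-13). HSPA1B lost it in 3, HSPA8 in 4, DNAJA1 in 5 and CRYAB in 4 of 15, and no called value reversed. The chaperone median at 2 h was -0.18 to -0.08 over the alternatives. The members tested in no comparison were left out by the filter on mean RPKM.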
